A study of Mus musculus with 6 samples.

Results

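The annexins are a gene family of calcium-dependent membrane-binding proteins, and 8 of them are described here in MLL-AF9 mouse leukemia: Anxa1, Anxa2, Anxa3, Anxa4, Anxa5, Anxa6, Anxa7 and Anxa11. Members were the rows with those names in a deposited table of 56748 genes, and each of the 8 was found and passed the filter on low counts. The 6 libraries are bulk RNA sequencing of bone marrow carrying leukemia driven by the MLL-AF9 fusion, which joins the histone methyltransferase MLL to AF9. Libraries 31, 32 and 40 are labelled Rbm5 KO (knockout of the splicing regulator RBM5) and libraries 25, 27 and 29 are labelled Rbm5 WT (wild type). Both groups carry MLL-AF9. The labels give no age, strain or method of deletion, name whole bone marrow as the cell type while also mentioning cultured cells, and call the replicates independent. The question behind the series is what RBM5 does to the genes that keep this leukemia self-renewing.

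Total counts were 26359299 to 31807588 per library. Rbm5 itself was at 269.0, 266.7 and 245.3 CPM (CPM here means counts per 1000000, after TMM scaling, a method that aligns the bulk of genes between libraries) in KO libraries 31, 32 and 40, against 227.5, 214.1 and 173.6 CPM in WT libraries 25, 27 and 29. The targeted gene was thus not lower in the libraries labelled KO, and KO and WT below mean the labels. The groups also differed in sex-linked transcripts. The Y-linked gene Ddx3y had 2645, 2674 and 3311 counts in KO libraries 31, 32 and 40 and 0 in each WT library. Xist, the transcript of the inactive X chromosome, had 350, 5027 and 795 counts in KO libraries 31, 32 and 40, against 55246, 39237 and 40004 in WT libraries 25, 27 and 29. KO library 32 thus had both Ddx3y and more Xist than the other KO libraries. Sex and the KO label cannot be told apart in any result here.

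Annexins share a core of repeated domains that clamps onto acidic phospholipids when calcium is present, and differ mainly in their N-terminal tails, which bind partner proteins. They take part in membrane repair, vesicle traffic and the uptake of dying cells, and several are abundant in neutrophils and monocytes. ANXA1 is known in these cells as a glucocorticoid-induced protein that limits inflammation.

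Of the 8 annexins, Anxa5, Anxa7 and Anxa11 were higher in the KO libraries, by 1.45-, 1.45- and 1.79-fold, 0 were lower, and 5 did not pass the test. The test was edgeR's quasi-likelihood test of KO against WT over 15963 genes, with Benjamini-Hochberg adjustment and a threshold of 0.05. Of all genes tested, 8.57% were called, 5.45% as higher and 3.12% as lower. With total counts as the only scaling, 597 genes were higher and 682 lower, against 870 and 498 with TMM. The members' log2 fold changes, KO minus WT, had a median of 0.54, against -0.01 for all genes tested, and all 8 were above 0. At an unadjusted p under 0.05, which 26.9% of all genes had, 5 members were higher and 0 lower. DESeq2, which called 13.8% of all genes in either direction, called 5 members higher and 0 lower. Limma-voom, which called 8.24% of all genes, called 3 members higher and 0 lower. Anxa4 and Anxa6 turned to -0.07 and -0.009 with total counts alone, a scaling that moved the median of all genes by -0.12, and relative to that median they stood at 0.06 and 0.13. The groups did not overlap in 5 members, against 33.7% of all genes tested. In these 5 (Anxa1, Anxa2, Anxa5, Anxa7 and Anxa11) every KO library lay above every WT library, which held for 17.2% of all genes tested. Of all genes, edgeR called 2.98% without KO library 31, 7.38% without KO library 32 and 2.09% without KO library 40. Without WT library 25, 27 or 29 it called 3.93%, 3.99% and 4.16%. The number of members called higher was 1 without KO library 31 or 40 or WT library 25 or 27, and 4 without WT library 29. Without KO library 32 the same 3 were called. Against WT library 25 alone, without libraries 27 and 29, it was 1 (Anxa2).

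**Figure D1:**
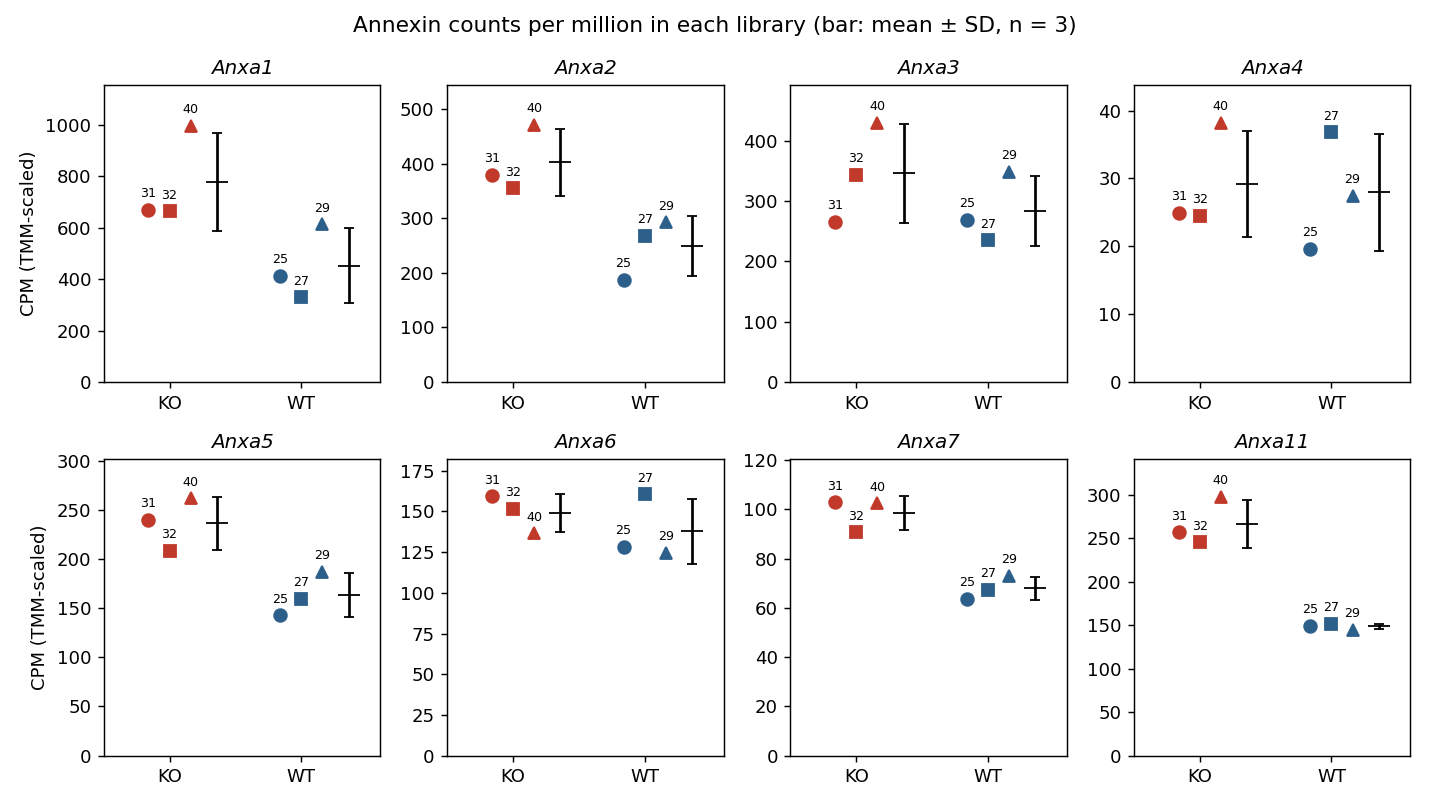
TMM-scaled CPM of the 8 annexins in each library, KO libraries 31, 32 and 40 on the left and WT libraries 25, 27 and 29 on the right of each panel, with the group mean ± SD as a bar. The lowest KO library stands 1.62 times above the highest WT library for Anxa11, while the groups overlap for Anxa3, Anxa4 and Anxa6.

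Of the annexins with long, flexible tails, Anxa11 differed the most from WT. ANXA11 tethers RNA granules to lysosomes in neurons and binds the calcium sensors S100A6 and ALG-2. Anxa11 (ENSMUSG00000021866; chromosome 14, 25842580 to 25887228, plus strand, in the coordinates of the deposited table, whose build is not stated) was at 256.9, 245.6 and 297.6 CPM in KO libraries 31, 32 and 40. In WT libraries 25, 27 and 29 it was at 149.4, 151.6 and 145.1 CPM. The groups did not overlap, and the lowest KO library stood 1.62 times above the highest WT library. Means were 266.7 ± 27.3 CPM in KO and 148.7 ± 3.33 CPM in WT (SD, n = 3 each). This gave a log2 fold change of 0.84 ± 0.10 SE (95% confidence interval 0.62 to 1.07), with an edgeR adjusted p of 0.00498. Whichever single library was left out, Anxa11 stayed past the threshold, with edgeR adjusted p from 0.00869 (without KO library 32) to 0.0211 (without WT library 29). Against WT library 25 alone, an arm of 1 library, it was 0.0545. A noncoding gene, Anxa11os, overlaps Anxa11 on the other strand, and the strand setting of the counting is not stated, so reads of the pair may be mixed. Its counts came to 0.849% of those of Anxa11 in KO and 0.535% in WT.

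Anxa7 encodes synexin, a protein that brings membranes together and binds the calcium sensor sorcin. Anxa7 (ENSMUSG00000021814; chromosome 14, 20505328 to 20530201, minus strand, in the table's coordinates) was at 102.8, 90.75 and 102.5 CPM in KO libraries 31, 32 and 40. WT libraries 25, 27 and 29 had 63.67, 67.40 and 73.03 CPM. The groups did not overlap, and within each of them the libraries varied little, with a coefficient of variation of 6.96% in KO and 6.93% in WT. KO minus WT, the log2 fold change was 0.54 ± 0.10 SE (95% interval 0.31 to 0.76, edgeR adjusted p = 0.0199). Without KO library 31, KO library 40, WT library 25 or WT library 27 the call was lost, with edgeR adjusted p of 0.0640, 0.0712, 0.0604 and 0.0616. The log2 fold change itself stayed between 0.49 and 0.59 whichever library was left out.

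Anxa7 and Anxa11 both lie on chromosome 14, whose 284 genes with a mean log2 CPM over 4 had a median log2 fold change of 0.02. The corresponding medians were -0.01 to 0.04 on chromosomes 3, 5, 9, 11 and 19, which carry the other annexins except Anxa4, and -0.26 on chromosome 6.

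Anxa5, the protein whose binding to exposed phosphatidylserine is used to stain dying cells, was also higher in KO. Anxa5 (ENSMUSG00000027712; chromosome 3, 36503072 to 36530043, minus strand, in the table's coordinates) had 239.7, 208.0 and 261.6 CPM in KO libraries 31, 32 and 40. In WT libraries 25, 27 and 29 it had 142.7, 159.4 and 187.0 CPM. The groups did not overlap, although the lowest KO library was only 1.11 times the highest WT library. Means were 236.5 ± 26.9 CPM in KO and 163.0 ± 22.4 CPM in WT (SD, n = 3 each), a log2 fold change of 0.54 ± 0.13 SE (95% interval 0.24 to 0.83, edgeR adjusted p = 0.0435). The call was kept without KO library 32 or WT library 29, and lost without KO library 31 (edgeR adjusted p = 0.109), KO library 40 (0.142), WT library 25 (0.118) or WT library 27 (0.119). It was also lost with total counts alone, at 0.0535.

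**Figure D2:**
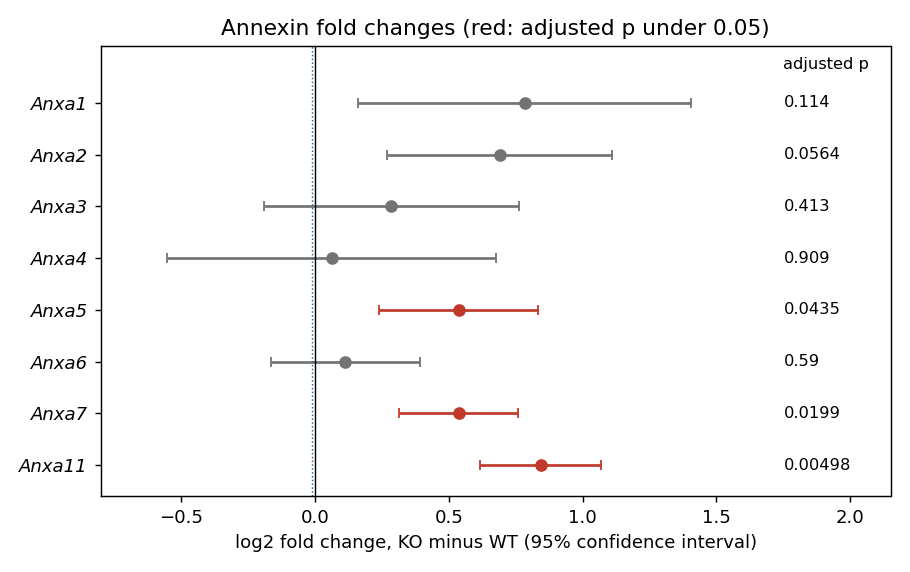
Log2 fold change of each annexin, KO minus WT, with its 95% confidence interval and, at the right, its edgeR adjusted p over all genes tested; red marks the members past 0.05 and the dotted line the median of all genes tested, -0.01. The intervals of Anxa3, Anxa4 and Anxa6 span 0, while those of Anxa1 and Anxa2 lie above 0 without passing the adjusted threshold.

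Anxa1 and Anxa2, whose short tails bind the calcium sensors S100A11 and S100A10, had fold changes within the range of those of the called members, with more spread between libraries. Anxa1 (ENSMUSG00000024659; chromosome 19, 20350792 to 20368308, minus strand, in the table's coordinates) was at 670.9, 664.2 and 997.9 CPM in KO libraries 31, 32 and 40. In WT libraries 25, 27 and 29 it was at 412.9, 329.2 and 613.7 CPM. KO library 40 and WT library 29 were the highest of their groups, and the lowest KO library was 1.08 times the highest WT library. Anxa1 had a log2 fold change of 0.78 ± 0.26 SE (95% interval 0.16 to 1.40), with an edgeR adjusted p of 0.114. Without WT library 29 it was 1.07 with an adjusted p of 0.0451, and without KO library 40 it was 0.57 with an adjusted p of 0.295. Its coefficient of variation was 24.5% in KO and 32.4% in WT, where counting error at its lowest count, 9479, was 1.03%.

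Anxa2 encodes the membrane subunit of a complex with S100A10 that serves as a plasminogen receptor on myeloid cells. Anxa2 (ENSMUSG00000032231; chromosome 9, 69360902 to 69399077, plus strand, in the table's coordinates) was at 380.0, 355.3 and 472.0 CPM in KO libraries 31, 32 and 40, against 187.2, 267.8 and 292.8 CPM in WT libraries 25, 27 and 29. KO library 40 was again the highest, WT library 25 the lowest, and the groups did not overlap. The log2 fold change was 0.69 ± 0.18 SE (95% interval 0.27 to 1.11), with an edgeR adjusted p of 0.0564. Anxa2 passed the threshold under DESeq2 (adjusted p = 0.00793), without the filter on low counts (0.0429) and against WT library 25 alone (0.0409). It passed in 0 of the 6 fits that left out 1 library. Under DESeq2 Anxa1 passed as well, at 0.0169.

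The promoters of Anxa11, Anxa1 and Anxa2 are shown because these are the members with the largest log2 fold changes. The sequences are RefSeq's, 250 bases before to 50 after an annotated start on GRCm38.p6, a coordinate system that differs from the deposited table's, and 6 of the 8 members had an entry. Capitals mark matches on either strand to 3 motifs. These are the TATA box TATAAA, the GC box GGGCGG, which binds SP and KLF factors and reads as CCGCCC on the other strand, and the AP-1 core TGANTCA. The windows are chr14:25841905-25842204 (plus strand), chr19:20390622-20390921 (minus) and chr9:69453433-69453732 (plus), each written 5′ to 3′ along its gene.
Anxa11: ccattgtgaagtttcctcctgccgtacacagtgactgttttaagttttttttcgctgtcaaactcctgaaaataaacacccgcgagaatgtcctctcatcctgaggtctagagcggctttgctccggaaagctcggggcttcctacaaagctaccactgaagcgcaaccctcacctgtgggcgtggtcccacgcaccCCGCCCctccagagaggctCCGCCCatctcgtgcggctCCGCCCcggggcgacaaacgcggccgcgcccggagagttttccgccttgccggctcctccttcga
Anxa1: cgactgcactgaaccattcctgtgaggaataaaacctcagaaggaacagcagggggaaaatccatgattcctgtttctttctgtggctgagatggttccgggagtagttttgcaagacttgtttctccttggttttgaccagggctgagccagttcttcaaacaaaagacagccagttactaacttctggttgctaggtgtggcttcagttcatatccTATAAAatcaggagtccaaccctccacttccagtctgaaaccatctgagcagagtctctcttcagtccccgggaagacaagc
Anxa2: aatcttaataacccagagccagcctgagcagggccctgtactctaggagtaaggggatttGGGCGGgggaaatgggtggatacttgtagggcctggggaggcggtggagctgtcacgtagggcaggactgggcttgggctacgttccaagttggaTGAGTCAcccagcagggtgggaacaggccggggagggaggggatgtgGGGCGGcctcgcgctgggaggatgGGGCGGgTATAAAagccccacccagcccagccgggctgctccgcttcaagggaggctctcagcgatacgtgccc
The Anxa11 window, with a GC content of 59.7%, held 3 matches to the GC box and 0 to the TATA box. The Anxa1 window was poorer in GC, at 47.3%, and held 1 match to the TATA box, 32 bases before the start, and 0 to the GC box. In the Anxa2 window, with 63.7% GC, there were 3 matches to the GC box, 1 to the TATA box and 1 to the AP-1 core, none of them overlapping. Of the 32841 promoter windows in the table, 13.6% held the TATA box, 35.7% the GC box and 7.81% the AP-1 core. The CCAAT box, the E-box read by MYC, spelled CACGTG, and a PU.1 motif spelled GAGGAAGT were also searched, and had 0 matches in these 3 windows, against 37.4%, 7.15% and 3.20% of all windows. Of the member windows not shown, an Anxa7 window held 1 match to CACGTG and the rest held 0.

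Anxa3, Anxa4 and Anxa6 showed no difference that passed the test, and their groups overlapped. Anxa3, an annexin abundant in neutrophils, was at 265.8, 344.0 and 430.1 CPM in KO libraries 31, 32 and 40, against 269.5, 235.1 and 348.6 CPM in WT libraries 25, 27 and 29. KO library 31 lay below WT library 25, and KO library 40 was the highest of the 6. The log2 fold change of Anxa3 was 0.29 ± 0.20 SE (95% interval -0.19 to 0.76, edgeR adjusted p = 0.413), so a fold of up to 1.69 lies within the interval. Anxa6, which carries a duplicated core and scaffolds signalling proteins at the membrane, was at 159.3, 151.7 and 136.6 CPM in KO libraries 31, 32 and 40. In WT libraries 25, 27 and 29 it was at 128.2, 160.6 and 124.7 CPM. Its values crossed between the groups, with KO library 40 the lowest KO library, unlike in Anxa1, Anxa2, Anxa3, Anxa4, Anxa5 and Anxa11, where that library was the highest. Its log2 fold change was 0.11 ± 0.12 SE (95% interval -0.16 to 0.39, edgeR adjusted p = 0.590).

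Anxa4, best known from secretory epithelia, had the lowest level of the 8, at 24.92, 24.47 and 38.16 CPM in KO libraries 31, 32 and 40 and 19.62, 36.81 and 27.40 CPM in WT libraries 25, 27 and 29. WT libraries 25 and 27 lay at opposite ends of the WT range, and the log2 fold change was 0.06 ± 0.26 SE (95% interval -0.55 to 0.68, edgeR adjusted p = 0.909). Anxa4 lies on chromosome 6 (86713822 to 86770566, minus strand, in the table's coordinates). The median of the 390 chromosome 6 genes with a mean log2 CPM over 4 stood 0.26 and 0.24 above its mean over the 6 libraries in WT libraries 27 and 29, on the log2 scale. In KO libraries 31, 32 and 40 and WT library 25 it stood at -0.10, -0.14, -0.11 and -0.14. Anxa4 itself deviated by -0.16, -0.18 and 0.46 in the KO libraries and by -0.50, 0.41 and -0.02 in WT libraries 25, 27 and 29. Its direction turned when 1 library was left out, to -0.18 without KO library 40 and -0.14 without WT library 25, and against WT library 25 alone it was 0.56 (edgeR adjusted p = 0.379).

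**Figure D3:**
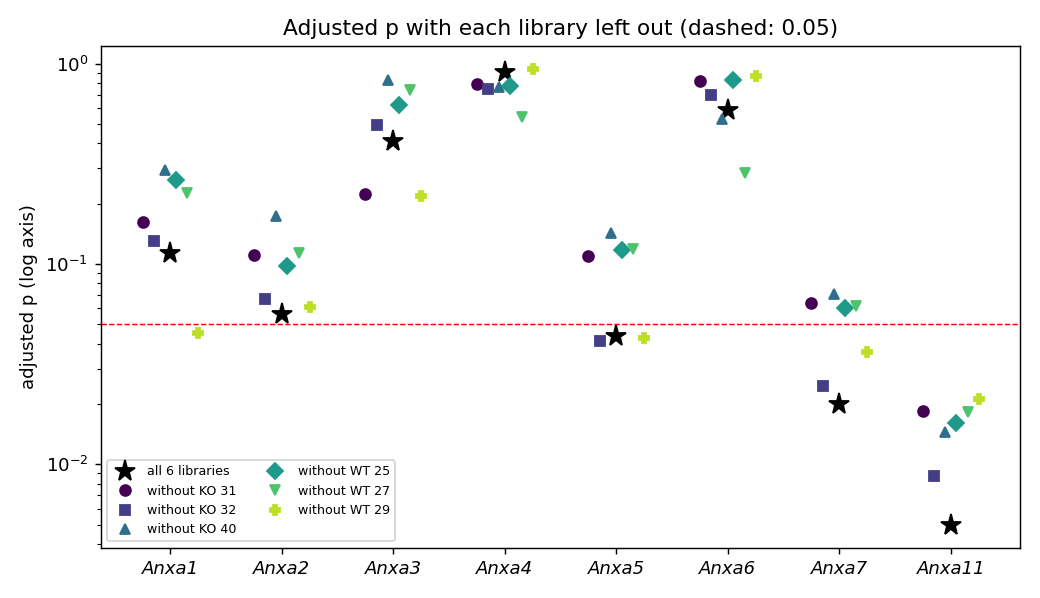
EdgeR adjusted p of each annexin (log axis) with all 6 libraries (star) and with each library left out in turn (coloured symbols); the dashed line is 0.05. Anxa11 lies below the line in every fit shown, Anxa5 and Anxa7 lie below it in 2 of the 6 fits with a library left out, and Anxa1 in 1 of them.

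Levels of different annexins can be compared once CPM is divided by the gene length given in the deposited table. On that scale Anxa1 was the most abundant member in both groups, at 267 ± 65.5 CPM per kb in KO and 155 ± 50.2 CPM per kb in WT (SD, n = 3 each), and it stood above 98.8% of all tested genes by its mean over the 6 libraries. In KO, Anxa5 followed at 133 ± 15.2, Anxa2 at 108 ± 16.5 and Anxa3 at 95.2 ± 22.6 CPM per kb, and the ranges of these neighbours over libraries overlapped. In WT, Anxa5 followed at 91.7 ± 12.6, Anxa3 at 78.1 ± 16, Anxa2 at 66.8 ± 14.8 and Anxa6 at 47.1 ± 6.76 CPM per kb, again with overlapping neighbours. Anxa7 and Anxa4 were last in both groups, at 16.5 ± 1.15 and 6.28 ± 1.67 CPM per kb in KO and 11.4 ± 0.787 and 6.02 ± 1.85 CPM per kb in WT. Anxa5, whose listed length of 1777 bases is the shortest of the 8, held rank 2 in both groups. By CPM without division by length it held rank 5 in KO and rank 4 in WT.

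Anxa11 and Anxa6 changed places in this order, but only per length. By CPM without division by length Anxa11 ranked above Anxa6 in both groups, at 4 against 6 in KO and 5 against 6 in WT. Per length, Anxa11 was at 59.4 to 72.0 CPM per kb in the KO libraries, above the 46.6 to 54.4 CPM per kb of Anxa6 there. In the WT libraries Anxa11 was at 35.1 to 36.7 CPM per kb, below the 42.6 to 54.8 CPM per kb of Anxa6. The ratio of Anxa11 to Anxa6 was 1.14, 1.15 and 1.54 in KO libraries 31, 32 and 40 and 0.826, 0.669 and 0.824 in WT libraries 25, 27 and 29. This pair was chosen after its values were seen, and an exact two-sided permutation test over the 6 libraries gave p = 0.10, the smallest that 3 against 3 allows. Since the ratios were already fully apart, that p was fixed in advance and adds no evidence.

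**Figure D4:**
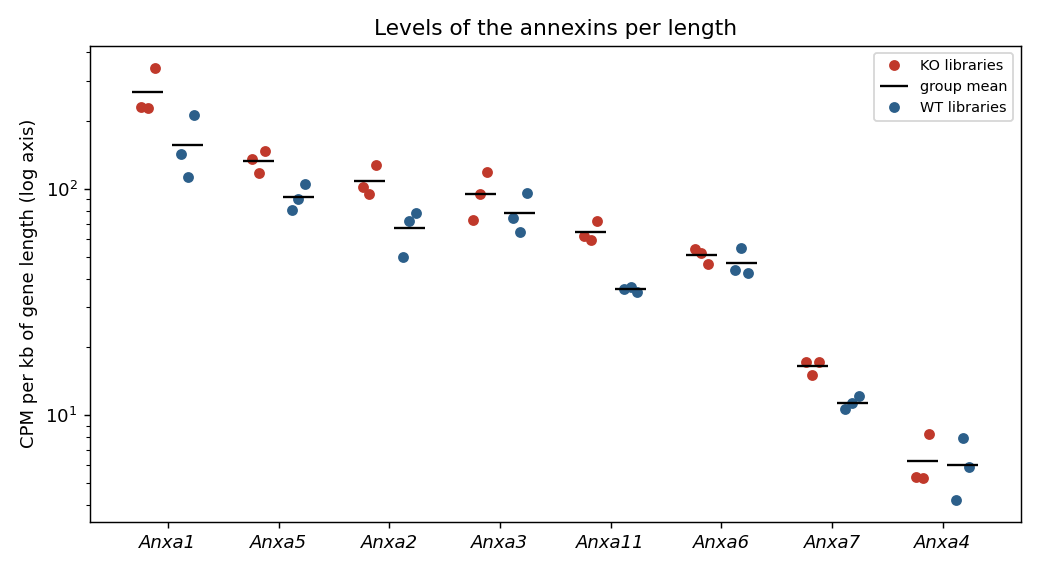
Level of each annexin per kb of gene length (TMM-scaled CPM per kb, log axis), ordered by the KO mean; red points are KO libraries, blue points WT libraries and lines group means. Anxa1 is on top in both groups at 267 and 155 CPM per kb in KO and WT, and Anxa11 lies above Anxa6 in KO but below it in WT. Without division by length Anxa11 ranked above Anxa6 in both groups.

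Summed over the 8 members, annexins made up 0.204%, 0.207% and 0.248% of all counts in KO libraries 31, 32 and 40, against 0.147%, 0.149% and 0.181% in WT libraries 25, 27 and 29. Every KO library was above every WT library. Anxa1 alone held 31.9% to 36.5% of these counts in KO and 23.4% to 33.9% in WT. Anxa6 held 4.99% to 7.59% in KO and 6.88% to 11.4% in WT, a lower share in KO library 40 than in any other. The libraries are bulk RNA, so fewer or more cells of a type and less or more RNA per cell cannot be told apart.

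The table lists 4 other protein-coding annexins. Anxa9, whose product has lost the usual calcium sites, was lower in KO, at 18.63, 17.01 and 14.83 CPM in KO libraries 31, 32 and 40 against 28.91, 25.35 and 22.55 CPM in WT libraries 25, 27 and 29. The groups did not overlap (log2 fold change -0.61 ± 0.15 SE, edgeR adjusted p = 0.0487), but the call was lost whichever library was left out, with adjusted p of 0.0629 to 0.154. Anxa9 is no member here and was singled out after its values were seen. Anxa8, Anxa10 and Anxa13 had 0 counts in each library, where 3 counts, the limit that a count of 0 allows, correspond to 0.0943 to 0.114 CPM, a limit that covers counting error only.

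Among 14 binding partners and receptors of annexins, 11 were tested and 4 were higher in KO: S100a11, S100a6, Fpr1 and Fpr2. By edgeR 0 were called lower, at an adjusted or an unadjusted p under 0.05, and also 0 by DESeq2 and limma-voom, and 7 did not pass. Of all genes tested, 5.45% were called higher and 3.12% lower. The list median of the log2 fold change was 0.47, against -0.01 for all genes. Fits with 1 library left out called 2.09% to 7.38% of all genes in either direction, against 8.57% with all 6 libraries. With 1 library left out, the number called higher was 1 without KO library 31 or 40 or WT library 29, 2 without WT library 25 or 27 and 4 without KO library 32, and against WT library 25 alone it was 1.

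The partner genes of the S100 family encode small calcium sensors that join a pair of annexins into a complex. S100a6, a partner of ANXA11, was at 125.0, 64.64 and 119.3 CPM in KO libraries 31, 32 and 40, against 39.29, 40.14 and 41.35 CPM in WT libraries 25, 27 and 29. The WT libraries lay close together, while KO library 32 stood well below the other KO libraries and still above all WT libraries. The log2 fold change was 1.35 ± 0.24 SE (edgeR adjusted p = 0.0214). S100a11, the partner of ANXA1, averaged 311.2 ± 61.4 CPM in KO and 195.6 ± 14.7 CPM in WT (SD, n = 3 each, log2 fold change 0.67 ± 0.15 SE, adjusted p = 0.0331). Both calls held in only 1 of the 6 fits with a library left out, that without KO library 32, with highest adjusted p of 0.0772 for S100a6 (without KO library 40) and 0.0987 for S100a11 (without WT library 27). S100a10, the partner of ANXA2, did not pass, at 76.24, 50.23 and 88.01 CPM in KO libraries 31, 32 and 40 and 47.73, 52.12 and 66.37 CPM in WT libraries 25, 27 and 29 (log2 fold change 0.37, 95% interval -0.14 to 0.87, adjusted p = 0.322). KO library 32 lay within the WT range.

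The receptors of ANXA1 were the partners with the largest differences. Fpr1 and Fpr2 encode formyl peptide receptors of phagocytes, and FPR2 is the receptor through which ANXA1 and its N-terminal peptide act. Fpr2 was at 61.96, 43.77 and 84.94 CPM in KO libraries 31, 32 and 40, against 5.35, 15.94 and 8.21 CPM in WT libraries 25, 27 and 29. The groups did not overlap (log2 fold change 2.70 ± 0.45 SE, edgeR adjusted p = 0.0240), and the call held in 3 of the 6 fits with a library left out. It was lost without KO library 31, KO library 40 or WT library 29, with edgeR adjusted p of 0.0689, 0.0701 and 0.0756. Fpr1 averaged 30.8 ± 14.8 CPM in KO and 1.28 ± 0.435 CPM in WT (SD, n = 3 each, log2 fold change 4.59 ± 0.50 SE, adjusted p = 0.00608), and passed whichever library was left out. Fpr1 also stands in the list of neutrophil markers used below. Of the other partners, Sri (sorcin, a partner of ANXA7) had a log2 fold change of 0.40 (adjusted p = 0.111), Pdcd6 (ALG-2) of 0.14 (0.363) and Ahnak, a large scaffold held by ANXA2 and S100A10, of 0.83 (0.358). The remaining tested partners, S100a4, Pla2g4a and Plgrkt, overlapped between the groups. Their log2 fold changes were 0.47, -0.19 and -0.04 (edgeR adjusted p = 0.472, 0.416 and 0.865).

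**Figure D5:**
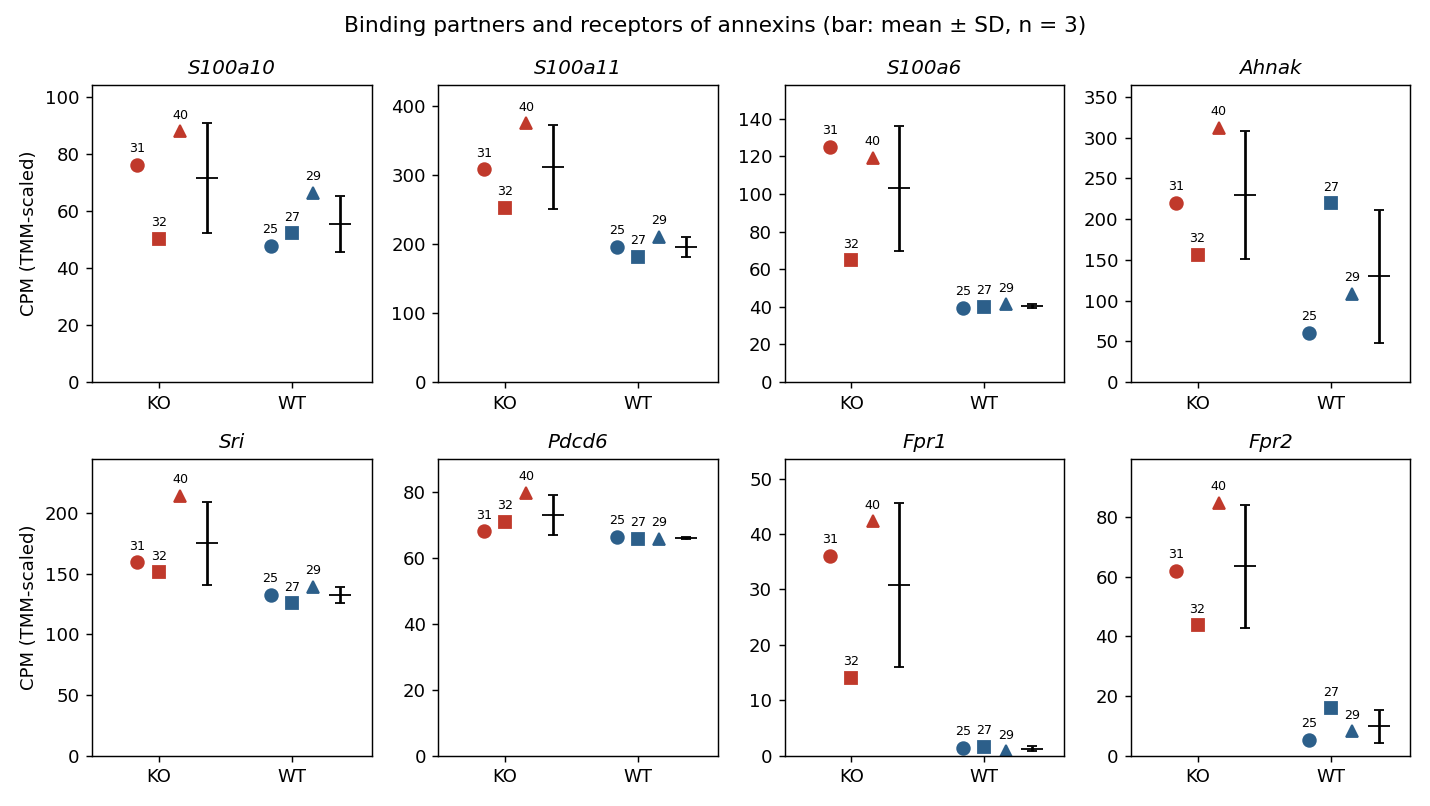
TMM-scaled CPM of binding partners (S100a10, S100a11, S100a6, Ahnak, Sri and Pdcd6) and receptors (Fpr1 and Fpr2) of annexins in each library, KO on the left and WT on the right, with group mean ± SD. Every KO library lies above every WT library for S100a11, S100a6, Sri, Pdcd6, Fpr1 and Fpr2, but not for S100a10 and Ahnak. Such a separation was seen in 17.2% of all genes tested. The tested partners S100a4, Pla2g4a and Plgrkt, whose groups overlapped, are not shown.

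Ratios of annexin to partner, per length, overlapped between the groups. Anxa2 to S100a10 was 1.62, 2.30 and 1.74 in KO libraries 31, 32 and 40 and 1.27, 1.67 and 1.43 in WT libraries 25, 27 and 29 (exact two-sided permutation p = 0.20). Anxa1 to S100a11 was 0.382 to 0.468 in KO and 0.319 to 0.512 in WT (exact permutation p = 0.60). The ratio of Anxa11 to S100a6 was 0.680, 1.26 and 0.824 in KO and 1.26, 1.25 and 1.16 in WT (exact permutation p = 0.30). Adjusted over the 7 ratios computed, they were 0.35, 0.70 and 0.42, and 0.35 for Anxa11 to Anxa6. The other ratios computed were Anxa1 to Anxa2, Anxa1 to Anxa3 and Anxa2 to Anxa6 (exact permutation p = 0.90, 0.10 and 0.20).

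For 2 processes in which annexins act, edgeR called 0 of 11 tested membrane repair genes and 3 of 13 tested phosphatidylserine genes. Of all genes tested, 8.57% were called and 26.9% had an unadjusted p under 0.05. Of 15 plasma membrane repair genes, 11 were tested and 0 passed the edgeR test in either direction, with 4 at an unadjusted p under 0.05 and a list median of 0.22. The smallest p belonged to Chmp2a, an ESCRT-III subunit (log2 fold change 0.35, adjusted p = 0.0559), and Capn2, a calcium-activated protease that works with annexins at wounds (0.74, adjusted p = 0.0753). DESeq2, which tested 15 of these genes and called 13.8% of all genes, called 1 higher and limma-voom 0. Without KO library 32, where 7.38% of all genes were called, edgeR called 3 higher. Of 14 genes of phosphatidylserine exposure and uptake, the ligand of ANXA5, 13 were tested, 2 were higher, 1 was lower and 10 did not pass. Plscr1, a phospholipid scramblase, averaged 32.3 ± 8.39 CPM in KO and 16.3 ± 2.29 CPM in WT, and the flippase gene Atp11a averaged 109.8 ± 7.75 CPM in KO and 69.2 ± 14.8 CPM in WT (SD, n = 3 each, edgeR adjusted p = 0.0281 and 0.0364). Mfge8, which bridges phosphatidylserine to phagocytes, averaged 14.5 ± 3.98 CPM in KO and 35.6 ± 11.7 CPM in WT (adjusted p = 0.0327). With 1 library left out, edgeR called 2.09% to 7.38% of all genes. Of this list it called 0 higher without KO library 31 or 40 or WT library 27 or 29, and 1 without KO library 32 or WT library 25. Without KO library 40 the adjusted p of Plscr1, Atp11a and Mfge8 were 0.0773, 0.123 and 0.124.

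Markers of mature neutrophils moved with the same labels. Of 15 markers, all tested, 10 were higher in KO and 5 did not pass the edgeR test, led by Cd177 and Fpr1 (adjusted p = 0.00274 and 0.00608), where 5.45% of all genes tested were called higher. DESeq2, which called 13.8% of all genes in either direction, called 14 of these markers higher, and limma-voom 12. Their summed level was 12900, 21600 and 30000 CPM in KO libraries 31, 32 and 40, against 1060, 3020 and 3870 CPM in WT libraries 25, 27 and 29, and 0 of the markers were at 0 counts in all libraries. Chil3, which was not called (edgeR adjusted p = 0.0932), gave 1709, 11770 and 12460 CPM of the KO sums. In WT libraries 25, 27 and 29 it gave 394.7, 1295 and 1420 CPM. KO library 32 stood above KO library 31 in the sum only with Chil3 included. With 1 library left out, 2.09% to 7.38% of all genes were called. The number of these markers called higher ranged from 5 (without KO library 31 or 40 or WT library 27) to 11 (without KO library 32). KO library 40 and WT library 29, the highest of their groups in this sum, were also the highest of their groups for Anxa1, Anxa2, Anxa3 and Anxa5. Anxa6 ran the other way, with KO library 40 and WT library 29 the lowest of their groups. For Anxa11 KO library 40 was the highest of its group but WT library 29 the lowest. Anxa4 was highest in KO library 40 and WT library 27, and Anxa7 in KO library 31 and WT library 29. Of 12 monocyte and macrophage markers 3 were higher, led by Csf1r and Lyz2 (adjusted p = 0.0214 and 0.0308), and 9 did not pass; 0 were called without KO library 31 or 40, and 1 without WT library 25 or 29. Their sum was 3540 to 5680 CPM in KO and 1680 to 2600 CPM in WT. At an unadjusted p under 0.05, which 26.9% of all genes tested had, there were 8 of these monocyte and macrophage markers. DESeq2 called 7 of them higher and limma-voom 2.

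Of the tested markers of B cells (3), T and NK cells (4) and stroma and endothelium (4), edgeR called 0, against 8.57% of all genes tested. At an unadjusted p under 0.05 there were 0, 2 and 1, against 26.9% of all genes tested. DESeq2, which tested more genes, called 1 of each list higher and limma-voom 0. With 1 library left out, edgeR called 1 T and NK cell marker higher without KO library 32, where 7.38% of all genes were called. It called 1 stromal and endothelial marker higher without KO library 31, where 2.98% were called. List medians of the log2 fold change were 0.15 for B cells, 1.63 for T and NK cells and 0.86 for stroma and endothelium. Summed levels overlapped between KO and WT, at 78.0 to 188 CPM in KO and 89.0 to 151 CPM in WT for B cells, 19.1 to 58.4 and 28.8 to 63.6 CPM for T and NK cells, and 81.6 to 167 and 99.6 to 184 CPM for stroma and endothelium. Single genes carried each of these sums. Ighm, an immunoglobulin heavy chain gene, averaged 112.6 ± 57.7 CPM in KO and 101.3 ± 23.1 CPM in WT (SD, n = 3 each). Nkg7, a granule protein gene of cytotoxic cells, averaged 40.4 ± 20.2 CPM in KO and 48.1 ± 18.1 CPM in WT, and Pecam1, which encodes CD31, averaged 106.4 ± 40.9 CPM in KO and 141.4 ± 45.2 CPM in WT (SD, n = 3 each). The T cell genes Cd3d and Cd8a had every KO library above every WT library, at 1.09 ± 0.530 and 0.718 ± 0.297 CPM in KO and 0.290 ± 0.119 and 0.145 ± 0.145 CPM in WT (SD, n = 3 each, log2 fold changes 1.87 and 2.31, edgeR adjusted p = 0.0721 and 0.0871). The collagen gene Col1a1 did so too, at 7.35 ± 5.89 CPM in KO and 1.97 ± 0.327 CPM in WT (SD, n = 3 each, 1.90, edgeR adjusted p = 0.0849). Every KO library lay above every WT library in 17.2% of all genes tested. Cd3d and Cd8a had only 2 to 41 counts a library. The genes named in this paragraph were chosen after their values were seen. The part of neutrophils, monocytes and these other cells in the annexin values was not tested.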

How the data were processed

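Raw counts of each gene in 6 libraries were deposited as whole numbers, beside a gene length and coordinates, per the file headers. RNA was extracted with TRIzol and sequenced by a commercial company, per the labels' protocols. Salmon, limma, GRCm38 and mm10 are named without a role, per the submitters' processing notes. No source used here says whether the counts are rounded Salmon estimates or how strand entered, so reads of overlapping genes are uncertain. Each pair of libraries differed by more than sampling noise (lowest chi-square per degree of freedom 39.3). P-values measure the spread between libraries that the labels call independent replicates.

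Genes were kept by filterByExpr of edgeR (minimum count 10, minimum total 15), which left 15963 genes. TMM factors set the scaling, and genes were tested with edgeR 4.0.16 in R 4.3.3, by its robust quasi-likelihood fit over all 6 libraries without covariates. This fit was also run on simulated counts in which far fewer genes were changed than were called in these data. There it made false calls at a share above the nominal threshold and missed most changes near the size of the Anxa5 and Anxa7 calls. The Benjamini-Hochberg cutoff depends on how many genes change, so neither outcome need hold at the same size in these data. Each SE was derived from the log2 value and the F statistic. CPM per kb used the deposited gene length, in bases. Groups came from the sample titles.

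The members and lists were chosen with earlier results of these data known. Named genes were the 8 annexins, S100a10, S100a11, S100a6, Fpr1 and Fpr2, up to 4 called members of each list around the annexins (2 where none was called), and up to 2 called markers of the neutrophil and monocyte lists. For each called annexin, the 2 genes with the most similar profile over libraries were also named. Sri, Pdcd6, Ahnak, S100a4, Pla2g4a, Plgrkt and Anxa9 were added after their values were seen. So were the markers Chil3, Ighm, Nkg7, Pecam1, Cd3d, Cd8a and Col1a1. The rule for naming called markers was set for every cell type list. Those of primary granules, eosinophils and mast cells, erythroid cells and platelets are nevertheless given without gene names in the closing section. Alternatives were other scaling factors, other filters, the fit without robust shrinkage, DESeq2 1.42.0, limma-voom (limma 3.58.1), fits with libraries left out, and a fit without genes on chromosomes 6, X and Y. Limma-voom with quality weights was added after the data were seen.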

Additional observations from a re-analysis of the deposited data

How the results depend on the processing

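Of 135 log2 fold changes of the annexins recomputed over the alternatives, 114 kept their direction and side of the threshold, 12 lost the call, 5 gained it and 4 turned negative. Those 4 were Anxa4 at -0.072 and Anxa6 at -0.009 with total counts alone, and Anxa4 at -0.18 without KO library 40 and -0.14 without WT library 25 (range -0.18 to 0.295 with 1 library left out), all of them in genes that did not pass the test. The count of annexins called higher, 3, was 5 with DESeq2 (Anxa1 and Anxa2 added) and 1 without WT libraries 27 and 29, which leaves 1 WT library assumed to vary like the KO libraries. With 1 library left out it was 1 to 4. The count called lower was 0 in each of these fits. Of all genes, 1368 were called, against 2475 with DESeq2, 453 without WT libraries 27 and 29, and 347 to 1227 with 1 library left out. The cause of these differences was not tested. The rank of Anxa5 by level, 2 in both groups, was 5 in KO and 4 in WT without division by gene length, since it is the shortest member. The annexin share of counts stayed within the spread between libraries when taken over protein-coding counts. Anxa4, with 640 to 1060 counts a library, had the largest counting error of the 8, up to 3.95%. No paired analysis was possible because the library numbers are not shared between the groups.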

Other observations

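Over the 6 libraries, the protein-coding genes with the profile most like that of Anxa11 were Kif21b, a kinesin motor gene, and Slc22a15, a transporter gene. The root mean square difference of their centred log2 CPM from that of Anxa11 was 0.05 for both, among 11540 genes compared. For Anxa7 the nearest genes were Lrrc8d, a subunit of volume-regulated anion channels, and Lcp1, the leukocyte actin bundler L-plastin. Lcp1 was also among the nearest to Anxa5, with the adhesion docking protein gene Nedd9. Their log2 fold changes were 0.91 for Kif21b, 0.81 for Slc22a15, 0.52 for Lrrc8d, 0.50 for Lcp1 and 0.47 for Nedd9. Choosing genes by their profile over these libraries fixes such values, so they are a description with no test.

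Among markers of other marrow cells, 2 of 6 primary granule and promyelocyte genes were higher and 1 was lower in KO by edgeR, with 4 at an unadjusted p under 0.05, while DESeq2 and limma-voom each called 3 higher and 1 lower. Of all genes tested, 26.9% had an unadjusted p under 0.05, and edgeR called 5.45% higher and 3.12% lower. For the other lists, 1 of 7 tested markers for eosinophils, basophils and mast cells, 1 of 4 erythroid and 1 of 5 platelet genes were higher and 0 lower by edgeR. At an unadjusted p under 0.05 there were 4, 1 and 2 in either direction. DESeq2 tested 10, 8 and 7 genes of these lists and called 13.8% of all genes in either direction. Of these list genes it called 4, 1 and 3 higher and 2, 0 and 0 lower. Limma-voom called 1 of each list higher and 0 lower. Fits with 1 library left out called 2.09% to 7.38% of all genes. With 1 library left out, the number called higher by edgeR was 0 (without WT library 25 or 27) to 2 (without WT library 29) for primary granules and 1 to 2 (without KO library 32) for eosinophils, basophils and mast cells. It was 0 for erythroid genes except 1 without KO library 32 or WT library 25, and 0 for platelet genes except 3 without KO library 32. Summed erythroid markers were at 3.43 to 5.32 CPM in KO and 1.33 to 2.91 CPM in WT, and platelet markers at 19.9 to 31.5 and 13.8 to 19.4 CPM.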
